A study of Mus musculus with 71 samples.

Results

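The response of mature 3T3-L1 adipocytes to 4 hrs of rosiglitazone (RSG) was measured on 6 of the 71 arrays of the study, 3 with RSG and 3 with the vehicle dimethyl sulfoxide (DMSO), chosen by the cell line and time in their titles. 3T3-L1 is a mouse fibroblast line that turns into white adipocytes in culture. Before treatment both groups had been differentiated with insulin, 3-isobutyl-1-methylxanthine, dexamethasone and 100 nM RSG, and had then been kept for 24 hrs in a washout medium with serum albumin. The treated cells received 1 µM RSG in that medium and the control cells received DMSO. The controls had therefore also met RSG during differentiation, and the comparison is of a second exposure against its vehicle. Adipocytes of another mouse line, C3H/10T1/2, are compared at the same time: they had been differentiated with 10000 nM RSG and insulin, without 3-isobutyl-1-methylxanthine or dexamethasone, and then went through the same washout, 1 µM RSG or DMSO. The labels call the 3 arrays of a group biological replicates, the methods state that they came from different batches of differentiated cells, and wells were pooled at harvest.

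RSG is a ligand of PPARγ, a nuclear receptor required for adipocyte differentiation. PPARγ binds DNA together with the retinoid X receptor (RXR), and its bound targets include genes of fatty acid uptake, lipid droplets, glycerol supply and lipolysis. In mature adipocytes its ligands are also known for effects on insulin action, and for raising the mitochondrial content over days.

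Signals on the 6 arrays were alike in scale. Their trimmed means were 149.99, their medians lay between 54.3 and 63.6, and 70.6% to 73.4% of probe sets reached 19.9, the level at which the methods call a probe set present. Pairs of these arrays correlated at 0.970 to 0.985 on the log2 scale. The 9 adipocyte markers with a probe set of their own were all above the presence level on at least 1 of the 6 arrays, and summed to 40250 to 43860 with RSG and 38590 to 42390 with DMSO. The 8 markers of preadipocytes or fibroblasts summed to 9630 to 10530 and 9683 to 10820, and none of them was called. Ucp1, the uncoupling protein of brown fat, was below the presence level on all 35 3T3-L1 arrays, with signals of 1.5 to 7.0. Of the 6 brown adipocyte markers with a probe set, Ucp1 and Zic1 were below that level on all 6 arrays, and none was called. The others were above it on all 6 arrays. Their means with RSG and DMSO were 116.7 and 78.87 for Cidea, 121.2 and 107.4 for Cox8b, 59.13 and 43.67 for Dio2, and 36.8 and 34.33 for Elovl3. Markers of macrophages summed to 479 to 524 with RSG and 443 to 524 with DMSO, no macrophage marker was called, and a share of such cells in the results below was not tested. In whole cultures, more transcript per cell and more cells that carry it cannot be told apart.

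After 4 hrs, RSG raised 98 of 18028 tested probe sets (0.544%) and lowered 31 (0.172%). The rises covered 78 genes and the falls 24, in each case counting probe sets that belong to 1 gene. Among genes with both group means at the presence level, the 5 with the largest rises were Pck1, Pfkfb3, Olr1, Fabp4 and Noct, and the largest fall was that of Pparg itself. The median change of a called probe set was 1.88-fold upward and 1.85-fold downward, and 42 of the rises and 9 of the falls were over 2-fold. On all 129 of these probe sets the RSG arrays lay entirely to 1 side of the DMSO arrays, which was so for 5.81% (above) and 6.51% (below) of all probe sets tested. At an unadjusted p under 0.05, 3.64% of probe sets were higher and 3.33% lower. A call means an adjusted p under 0.05 in limma, with all 35 arrays of the line in 1 fit and a Benjamini-Hochberg adjustment over all probe sets. Leaving out RSG replicate 1 left 58 rises, leaving out DMSO replicate 2 left 59 rises and 16 falls, and with the spread estimated from these 6 arrays alone 46 rose and 11 fell. The methods name an analysis of variance of log10 signals without stating which arrays shared a model. Run on the 6 arrays alone, such a test gave 526 rises and 496 falls at an unadjusted p under 0.05 and over 1.2-fold. After a Benjamini-Hochberg adjustment it gave 0 of either.

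**Figure D1:**
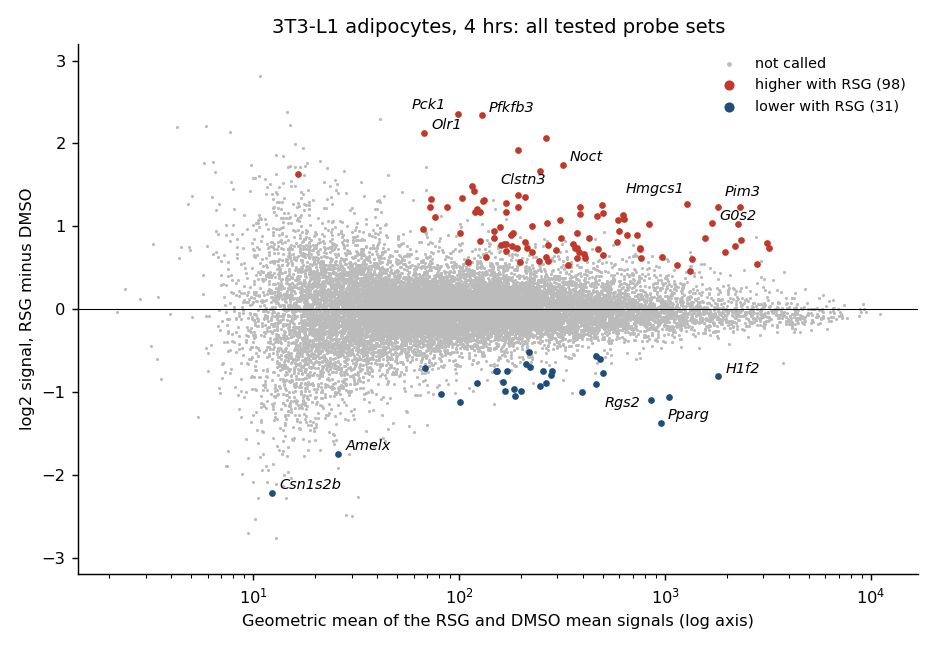
Each of the 18028 points is a tested probe set in 3T3-L1 adipocytes at 4 hrs. The horizontal axis is the geometric mean of the 2 group mean signals on a log axis and the vertical axis the difference of the mean log2 signals, RSG minus DMSO. Red marks the 98 called higher and blue the 31 called lower, which lie over most of the range of signal, while uncalled points spread widest at low signal.

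Genes that handle stored lipid were among the rises. The gene lists used here and below were chosen with earlier results of these data known, so their counts describe the lists and do not test them. Of 45 probe sets for PPARγ and lipid droplet targets 6 were higher (13.3%) and 1 was lower (2.22%), against 0.544% and 0.172% of all probe sets. At an unadjusted p under 0.05 in limma, 20 were higher and 2 lower, against 3.64% and 3.33% of all. The median log2 difference of the list was 0.29, against -0.02 over all probe sets tested. Pck1, the cytosolic enzyme that adipocytes use to make the glycerol backbone of triglycerides, gave signals of 245.7, 245.0 and 184.8 with RSG and 44.1, 43.2 and 43.8 with DMSO. All RSG arrays were far above the tight DMSO arrays, and the rise was 5.11-fold (log2 difference 2.35, SE 0.29; limma adjusted p = 1.23e-05). Another Pck1 probe set gave means of 24.3 and 36.0 and was not called. G0s2, an inhibitor of the triglyceride lipase Pnpla2, read 2168, 2555 and 2528 against 1115, 1281 and 1140, a 2.05-fold rise (adjusted p = 5.56e-05). Cidec, which makes lipid droplets fuse and grow, had a mean signal of 4080 with RSG and 2383 with DMSO (log2 difference 0.79, adjusted p = 0.0101). The droplet coat protein Plin2 had means of 3363 and 2310 (log2 difference 0.54, adjusted p = 0.0290). Cidec and Plin2 were outside the rule for named genes and are given because they complete the list, and the Plin2 call was lost with any 1 array left out (0.0742 to 0.135), the Cidec call without RSG replicate 1 (0.0733) or DMSO replicates 2 (0.0959) or 3 (0.0982).

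The fatty acid binding protein Fabp4 is a textbook PPARγ target, and its probe sets differed. On the probe set with the larger rise the RSG arrays read 809.1, 286.7 and 596.3 and the DMSO arrays 134.6, 131.1 and 108.3. The rise was 4.17-fold with an adjusted p of 0.00351, but the RSG arrays were spread widely, and without RSG replicate 1 the adjusted p was 0.0552. On another the log2 difference was 1.92 (adjusted p = 2.44e-05), with 329.6 to 455.5 against 78.1 to 112.6. In contrast, the probe set with the highest signal of the gene read 6230, 6320 and 6050 against 5668, 6034 and 4926 (log2 difference 0.17, SE 0.15) and was not called, and neither was the remaining one (log2 difference 0.23). The 4 probe sets thus disagreed, with 2 called higher and 2 not called.

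Lipolysis is the release of stored fatty acids. At an unadjusted p under 0.05 in limma, 7 of its 11 probe sets were higher and 0 lower, against 3.64% and 3.33% of all probe sets. The median log2 difference of the list was 0.53. Called were 2 rises (18.2%, against 0.544% of all probe sets) and no fall (0.172% of all). The rises were G0s2 and Mgll, the lipase of the last step, which read 197.7, 216.4 and 207.1 against 146.7, 119.4 and 100.5 (1.71-fold, adjusted p = 0.0279). Without any 1 array other than DMSO replicate 1 the Mgll call was lost, with adjusted p from 0.0770 to 0.241, and its other 2 probe sets were not called (0.63 and 0.51). Hormone-sensitive lipase, Lipe, had means of 3333 and 2307 (log2 difference 0.53, adjusted p = 0.0890), and Pnpla2, the lipase of the first step, 3415 and 2698 (0.36, adjusted p = 0.825). Of the glycerol and triglyceride assembly list Pck1 was the single call among 27 probe sets, although 9 were higher at an unadjusted p under 0.05. Of the 9 adipocyte markers Cidec was called higher and Pparg lower, and the other 7 were not called. Among these, Lipe and Cd36, the fatty acid carrier (2162 to 2324 against 1812 to 1873), had all RSG arrays above the DMSO arrays, and Retn, the adipokine resistin, had them below (3812 to 4355 against 4738 to 5174). Adipoq read 7025 to 8255 with RSG and 6483 to 7997 with DMSO (log2 difference 0.05, SE 0.16), Lpl -0.08 (SE 0.18) and Scd1 0.00 (SE 0.17).

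Pparg fell. Its signals were 669.4, 493.4 and 610.6 with RSG and 1830, 1508 and 1274 with DMSO. The groups were far apart, and the fall was 2.59-fold (log2 difference -1.38, SE 0.17; limma adjusted p = 1.48e-05). The call held with each of the 6 arrays left out, with adjusted p from 3.91e-05 to 0.000384. Pparg was thus the single fall on the PPARγ target list.

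**Figure D2:**
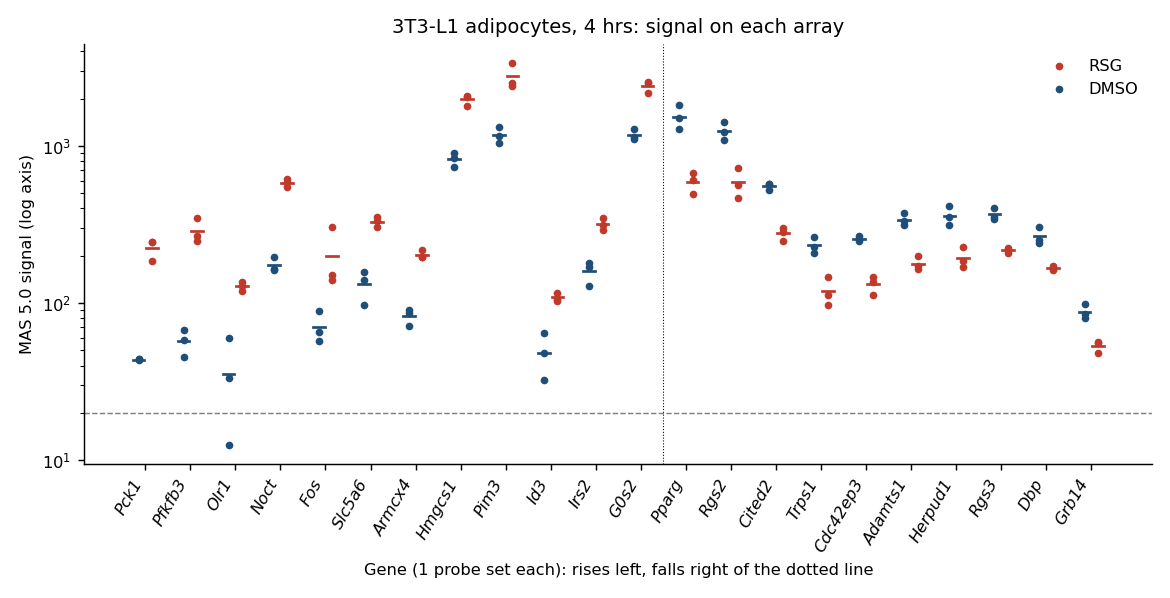
Signal of 22 genes on each of the 6 arrays at 4 hrs, on a log axis, with 1 called probe set per gene. Red points are the 3 RSG arrays, blue points the 3 DMSO arrays, bars are group means and the dashed line is the presence level of 19.9. In 12 genes to the left of the dotted line all RSG points lie above all DMSO points, and in 10 genes to the right they lie below. The DMSO points of Olr1 are the most scattered, from 12.5 to 59.9.

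Peroxisomes shorten very long fatty acids, and 2 of 37 probe sets of peroxisomal genes rose at 4 hrs (5.41%, against 0.544% of all probe sets). None was called lower (0.172% of all), and the list median was 0.28. At an unadjusted p under 0.05 in limma, 13 were higher and 2 lower, against 3.64% and 3.33% of all probe sets. Pex16, which inserts proteins into the peroxisomal membrane, read 797.5, 895.1 and 850.9 against 537.0, 359.3 and 340.1, a 2.10-fold rise (adjusted p = 0.000424), and its other probe set was not called (log2 difference 0.21). Pex13, part of the docking site for imported enzymes, read 1542, 1517 and 1563 against 1243, 1112 and 1024. The groups did not overlap, but the rise was small (1.37-fold, adjusted p = 0.0451), and its call was lost without any 1 array other than DMSO replicate 1 (adjusted p 0.121 to 0.283). Another Pex13 probe set had a log2 difference of 0.34 and was not called. The import receptor Pex5 had a log2 difference of 0.76 and an adjusted p of 0.0593. The oxidising enzymes themselves were not called: the catalase gene Cat, for example, had log2 differences of 0.28 and 0.48 on its 2 probe sets.

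Mitochondrial gene lists held calls at about the share of all probe sets (0.544% higher, 0.172% lower), so that their counts say nothing particular about them. None of 54 fatty acid oxidation probe sets was called in limma (4 were higher and none was lower at an unadjusted p under 0.05), and the list median was 0.04. The trifunctional protein subunits Hadha and Hadhb, which carry out the last steps of the oxidation cycle, had log2 differences of 0.27 (SE 0.12) and 0.12 (SE 0.12). Crat, the carnitine acetyltransferase, had 0.42 (SE 0.17, adjusted p = 0.562), although its RSG arrays (636.0 to 735.4) lay above its DMSO arrays (447.1 to 606.7). Another Crat probe set had 0.58 (limma adjusted p = 0.145), also without overlap (84.8 to 89.9 against 50.8 to 74.5), and was not called. Acsl5 and Acadsb had -0.13 and -0.10. Ehhadh was below the presence level on all 35 arrays of the line and was not tested.

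In the TCA cycle 1 of 36 probe sets was higher, and in oxidative phosphorylation 1 of 144. The first was Idh3a, the catalytic subunit of the NAD-dependent isocitrate dehydrogenase. On its called probe set it read 230.3, 246.2 and 222.2 against 143.4, 158.2 and 113.3 (1.70-fold, adjusted p = 0.00651), and without DMSO replicate 3 the adjusted p was 0.0916. Another Idh3a probe set had means of 2019 and 1481 without overlap (log2 difference 0.45, adjusted p = 0.0867), and the remaining one had 0.50 and was not called. The second was Cycs, cytochrome c, the mobile electron carrier, with 2418, 2294 and 2697 against 1765, 1508 and 1337 (1.61-fold, adjusted p = 0.0102). Its other probe sets were not called, with log2 differences of 0.64 (adjusted p = 0.0618) and 0.28 (0.959), and the call was lost without RSG replicate 3 (0.0814), DMSO replicate 2 (0.0606) or DMSO replicate 3 (0.114). Slc25a25, a carrier that moves adenine nucleotides across the inner membrane, read 192.6, 220.2 and 158.6 against 79.3, 101.4 and 72.7, a 2.26-fold rise with an adjusted p of 0.0217. Without RSG replicates 1 or 2 or DMSO replicates 1 or 3 its adjusted p was 0.0971 to 0.150. Citrate synthase, Cs, had a log2 difference of 0.17 (SE 0.17), Ucp3 0.45 (SE 0.21) and Cidea 0.51 (SE 0.48), none of them called. None of 134 probe sets for mitochondrial ribosomes, import and chaperones was called, and 5 were higher and 1 lower at an unadjusted p under 0.05.

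Pdk4, the kinase that shuts off pyruvate dehydrogenase and is a known PPAR target, was not called at this time. It read 158.6, 107.1 and 114.5 with RSG and 117.0, 101.2 and 123.2 with DMSO. The groups overlapped, with a log2 difference of 0.14 (SE 0.19; limma adjusted p = 0.998). The other 14 probe sets for the pyruvate dehydrogenase complex and its kinases were not called either, and none had an unadjusted p under 0.05.

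Promoters of the genes that moved were read from RefSeq, on build GRCm38.p6, from 250 bases before to 50 bases after the start, and were found for 66 of the 78 genes with a rise, 20 of the 24 with a fall and 8423 of 10461 genes tested. The repeat bound by PPARγ and RXR, spelled here as AGGTCA, 1 base and AGGTCA, stood on either strand of no gene that rose and no gene that fell, and of 3 genes tested (0.0356%). The single AGGTCA was found in 10 of the 66 promoters of genes that rose (15.2%), 3 of the 20 of genes that fell and 15.7% of all. The cAMP response element TGACGTCA, looked for after the called genes had been seen, was in the promoters of 5 genes that rose (7.58%), of none that fell and of 3.22% of all genes tested. The windows of those 5 are shown with the element in capitals, on the strand of the gene and 5′ to 3′. Of them Cycs, Slc25a25 and Pex13 are mitochondrial or peroxisomal rises described above. Among the other such rises described, Pex16 had no match and the promoter of Idh3a was not analysed here. That grouping was also made after the calls had been seen, and a link between the element and such genes was not tested. A match describes these letters and is not a binding site, and no match says that these letters are not in this window.
Clstn3, chr6:124464750-124464813, minus strand: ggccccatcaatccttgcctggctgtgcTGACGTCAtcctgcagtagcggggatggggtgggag
Cycs, chr6:50566703-50566766, minus strand: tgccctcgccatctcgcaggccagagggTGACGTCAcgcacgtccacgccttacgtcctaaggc
Mcam, chr9:44134601-44134664, plus strand: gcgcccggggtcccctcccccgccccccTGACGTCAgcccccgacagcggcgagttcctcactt
Pex13, chr11:23665931-23665994, minus strand: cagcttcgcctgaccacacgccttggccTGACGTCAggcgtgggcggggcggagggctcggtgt
Slc25a25, chr2:32424181-32424244, minus strand: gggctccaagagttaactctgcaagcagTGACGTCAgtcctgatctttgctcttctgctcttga

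Coregulators decide which nuclear receptor targets are transcribed. Of 36 probe sets for coregulators and nuclear receptors of mitochondrial genes, Ppargc1b was higher and Pparg lower. Each was 2.78% of the list, against 0.544% higher and 0.172% lower of all probe sets. The list median was -0.02, as over all probe sets, so the calls describe single genes and not the list. Ppargc1b, which encodes the coactivator PGC-1β, read 261.5, 255.5 and 202.6 against 146.5, 87.3 and 164.0 (1.86-fold, adjusted p = 0.00541), and without DMSO replicate 2, its lowest array, the adjusted p was 0.104. Its relative Ppargc1a read 45.9 to 51.7 with RSG and 55.6 to 89.5 with DMSO, a log2 difference of -0.41 (SE 0.25) that was not called. The other Ppargc1a probe sets were not called either. Their log2 differences were -0.48 and -0.26, and -1.46 and -0.21 where both group means were below the presence level. Nrip1, a corepressor of oxidative genes, read 288.4 to 294.7 and 180.6 to 228.7 (log2 difference 0.48, adjusted p = 0.109). Another Nrip1 probe set read 256.8 to 319.8 and 183.4 to 226.8 (0.53, limma adjusted p = 0.206) and was not called. Esrra had 0.07 (SE 0.14), and the Ppara signals were below the presence level on all 6 arrays.

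Early transcription factors moved in both directions. Of 82 probe sets for adipogenic and early factors 5 were higher and 4 lower, and of 46 for immediate early genes 6 were higher and 1 lower. Fos, a component of the AP-1 factor, read 306.5, 140.3 and 151.1 with RSG and 88.9, 57.1 and 65.5 with DMSO. The groups did not overlap, although the first RSG array stood well above the others. The rise was 2.69-fold (log2 difference 1.43, SE 0.26; adjusted p = 0.00264), and without RSG replicate 1 the adjusted p was 0.0570. Egr1, an early growth response factor outside the naming rule, read 895.6, 640.2 and 713.2 against 287.8, 353.6 and 356.1 (log2 difference 1.17, adjusted p = 9.78e-05). Gadd45g, a growth arrest gene also outside the rule, rose by 1.23 on the log2 scale (adjusted p = 0.00119). The junction and Hippo pathway protein Amotl2 read 206.4, 259.1 and 334.7 against 102.6, 98.2 and 122.9 (2.44-fold, adjusted p = 1.72e-05). Pim3, a serine and threonine kinase, read 3367, 2422 and 2528 against 1320, 1038 and 1150 (2.36-fold, adjusted p = 4.19e-06), a second probe set rose by 1.23 on the log2 scale, and another had -0.16 and was not called. Jund, another AP-1 subunit, went the other way with 420.3, 313.4 and 441.2 against 634.8, 602.7 and 530.4 (1.52-fold lower, adjusted p = 0.0151). The Jund call was lost without RSG replicate 2 (0.214), DMSO replicate 1 (0.103) or DMSO replicate 2 (0.0883).

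Id proteins bind and silence basic helix-loop-helix factors. Id3 rose 2.35-fold, with 103.3, 116.7 and 107.0 against 64.2, 47.9 and 32.2 (adjusted p = 0.000478). Id4 fell 2.04-fold, with 51.1, 50.9 and 68.9 against 94.6, 142.7 and 113.1, at the edge of the threshold (adjusted p = 0.04999), and leaving out RSG replicates 1 or 2 or DMSO replicates 2 or 3 raised it to 0.147 to 0.320. The other 2 Id4 probe sets were not called (-0.67 and -0.32, adjusted p 0.420 and 0.987), and with signals floored at the presence level the call of the first was lost. Cited2, which competes with transcription factors for the coactivator CBP, read 301.9, 248.9 and 283.3 against 525.1, 570.1 and 570.8, a 2.00-fold fall (adjusted p = 0.000869), and its other probe set fell by 1.05 on the log2 scale. Tle3, a corepressor that works with PPARγ in fat cells, read 163.5, 144.8 and 196.3 against 112.5, 93.6 and 79.6 (1.77-fold higher, adjusted p = 0.00217), and its other 2 probe sets were not called (1.09 and 0.47, adjusted p 0.0883 and 0.900). Etv3, a repressor of the ETS family, read 126.5, 108.6 and 107.6 against 36.2, 42.8 and 60.6 (2.51-fold, adjusted p = 0.000274), but its other 2 probe sets were not called, with log2 differences of 0.61 and 0.24. Trps1, a repressor of the GATA type, fell 1.99-fold (119 against 235, adjusted p = 0.00707), and its call was lost without RSG replicate 2 (0.0771) or DMSO replicate 3 (0.0639).

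Genes of insulin action and glucose use included a few strong rises. Pfkfb3 makes the small molecule that activates phosphofructokinase, the gate of glycolysis. It read 348.9, 249.8 and 268.1 against 67.5, 45.5 and 58.6, a 5.06-fold rise (log2 difference 2.34, SE 0.27; adjusted p = 4.44e-06), and its second probe set rose by 1.12. Both calls in the 39 glycolysis probe sets were Pfkfb3, so none of the enzymes on the main path was called. Irs2, which links the insulin receptor to its kinases, read 293.6, 312.7 and 349.7 against 128.9, 180.9 and 169.4 (2.01-fold, adjusted p = 0.00119). Sh2b2, an adaptor of the same receptor, read 576.1, 544.1 and 595.5 against 287.0, 306.8 and 353.6 (1.82-fold, adjusted p = 0.00366), and its other probe set was not called (0.36, adjusted p = 0.880). Grb14, which inhibits the receptor, fell 1.64-fold, from 80.2 to 98.1 with DMSO to 48.1 to 56.4 with RSG (adjusted p = 0.0170), and without RSG replicate 1 or DMSO replicate 3 its adjusted p was 0.144 and 0.146. Ppp1r3c, which brings protein phosphatase to glycogen, fell 2.09-fold (adjusted p = 0.0434) and was not called without RSG replicates 1 or 3 or DMSO replicates 2 or 3 (0.132 to 0.342), and its other probe set had a log2 difference of -1.01 and was not called. The glucose carrier Slc2a1 was not called on any of its 3 probe sets (log2 differences of -0.54, -0.41 and -0.30).

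In the list for signals that pass through G proteins and cAMP, 4 of 53 probe sets were lower (7.55%, against 0.172% of all probe sets). A single one was higher (1.89%, against 0.544% of all). The list median was -0.03, near the -0.02 over all probe sets, so the calls describe single genes and not the list. The falls were 2 probe sets each of Rgs2 and Rgs3, regulators that switch G proteins off. Rgs2 read 562.1, 469.2 and 729.3 against 1415, 1228 and 1093, a 2.15-fold fall (adjusted p = 3.47e-05). Rgs3 read 219.2, 208.9 and 224.0 against 402.5, 354.8 and 343.3, a 1.68-fold fall (adjusted p = 0.000729), and another Rgs3 probe set was not called. The rise was Adcy6, an adenylate cyclase, with 418.9, 384.3 and 330.1 against 252.6, 214.2 and 222.1 (1.64-fold, adjusted p = 0.0170), and it was lost without RSG replicates 1 or 2 or DMSO replicates 2 or 3 (0.0771 to 0.148).

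In the list of clock genes Noct, a phosphatase with a daily rhythm that is known to promote fat cell formation, rose 3.34-fold. It read 588.4, 612.2 and 544.8 against 165.3, 161.3 and 197.6, the smallest adjusted p of the genes named by rule (1.76e-06). The clock output factor Dbp fell on both of its probe sets, 1.58-fold on the one used for naming (172.6, 167.1 and 161.5 against 303.0, 251.6 and 242.1; adjusted p = 0.0101). That call was lost without RSG replicate 3 (0.0559) or DMSO replicate 1 (0.103). No other clock gene was called.

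A single gene carried the cholesterol list. All 4 probe sets of Hmgcs1, the cytosolic enzyme that makes the precursor of sterols, rose by 0.90 to 1.26 on the log2 scale. On the one with the largest rise it read 2058, 2066 and 1801 against 903.2, 730.0 and 836.4 (2.40-fold, adjusted p = 0.000202). The other 43 probe sets of the list were not called, and its median was -0.11. Fdft1 and Cyp51, later enzymes of the same pathway, had log2 differences down to -0.69 and -0.67 and adjusted p of 0.413 and 0.250. Fasn, the fatty acid synthase, had -0.21 (SE 0.20), and none of 38 fatty acid synthesis probe sets was called in limma, with 0 higher and 2 lower at an unadjusted p under 0.05.

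Outside these lists, the larger rises were in genes of several kinds. Olr1, a receptor for oxidised lipoprotein, read 128.9, 119.0 and 137.0 against 12.5, 33.5 and 59.9 (4.38-fold, adjusted p = 0.00123), with 1 DMSO array below the presence level. Slc5a6, the carrier of biotin and pantothenate, read 331.9, 303.2 and 352.1 against 97.6, 157.5 and 139.9 (2.55-fold, adjusted p = 0.00119). Clstn3, a calsyntenin of the cell surface, had group means of 313 ± 83.3 and 120 ± 27.8 (SD, n = 3), a 2.60-fold rise with an adjusted p of 0.000478 in limma. Armcx4, an armadillo repeat protein encoded on the X chromosome, read 217.2, 195.3 and 197.7 against 86.3, 71.3 and 90.9 (2.47-fold, adjusted p = 5.34e-05). Glipr2 read 160.1, 167.0 and 166.0 against 76.3, 58.1 and 61.9 (2.53-fold, adjusted p = 0.0110), while its other probe set had a log2 difference of 0.53 and was not called. Chst1, a sulfotransferase of keratan sulfate, rose 2.48-fold (adjusted p = 0.020). The Glipr2 call was lost without RSG replicate 2 (0.0510), DMSO replicate 2 (0.0872) or DMSO replicate 3 (0.0618), and the Chst1 call without RSG replicates 1 or 3 or DMSO replicates 1 or 2 (0.0512 to 0.239). Nrg4, a neuregulin secreted by fat, rose 1.48-fold (adjusted p = 0.0454), with a call that held in none of the omissions but that of RSG replicate 1 (0.0524 to 0.307 in the others).

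A few other rises lay outside the naming rule and the lists' examples, and were chosen after their values were seen. Cavin2, a coat protein of caveolae, had signals of 863.5 to 963.2 against 424.5 to 446.9 on 1 of its 2 called probe sets (log2 difference 1.08, adjusted p = 0.000751). Mrap, the accessory protein of the corticotropin receptor, had 772.1 to 912.7 against 384.1 to 518.5 (0.94, adjusted p = 0.00119). The adiponectin receptor Adipor2 had 2254 to 3242 against 1506 to 1796 (0.76, adjusted p = 0.00715), and Klb, the co-receptor of endocrine fibroblast growth factors, 454.6 to 600.1 against 313.1 to 343.9 (0.61, adjusted p = 0.0215). A probe set shared by Arxes1 and Arxes2, which are near-identical copies, rose by 1.67 and cannot be assigned to either. The Adipor2 call was lost without RSG replicates 1 or 3 or DMSO replicate 3 (0.0569 to 0.0818) and the Klb call without RSG replicate 2 or any 1 DMSO replicate (0.0565 to 0.230).

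Among the other falls, Adamts1, a secreted metalloprotease, read 199.0, 171.2 and 165.5 against 331.6, 314.5 and 373.7 (1.91-fold, adjusted p = 0.00202). Cdc42ep3, an effector of the GTPase Cdc42, read 147.0, 113.4 and 137.0 against 248.7, 255.7 and 266.8 (1.95-fold, adjusted p = 0.00107), and another probe set had a log2 difference of -0.45 and was not called. The linker histone H1f2 had means of 1372 and 2378 (1.76-fold, adjusted p = 0.00366) and was not called without RSG replicate 2 (0.0636), and 1 of its other probe sets had 0.08 and was not called. Thrombomodulin, Thbd, fell 1.86-fold, Bbip1, a subunit of the ciliary BBSome, 1.87-fold, and Herpud1, which takes part in the removal of misfolded proteins from the endoplasmic reticulum, 1.85-fold. Leaving out single arrays lost the call of Thbd (without RSG replicate 3 or DMSO replicates 1 or 3, 0.107 to 0.211), of Bbip1 (without RSG replicates 2 or 3 or DMSO replicates 1 or 2, 0.129 to 0.205) and of Herpud1 (without RSG replicates 1 or 3 or DMSO replicate 2, 0.0557 to 0.0966). Another Herpud1 probe set had a log2 difference of 0.24 and was not called.

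For 3 genes near the presence level a bound stands in place of a fold. Smoc2, a matricellular protein, was below the level on all DMSO arrays and was at least 1.43-fold higher with RSG (means 29.1 and 9.43, adjusted p = 0.0102). The casein gene Csn1s2b was below it on all RSG arrays and at least 1.32-fold lower (5.73 and 26.8, adjusted p = 0.00563), and the enamel gene Amelx was at least 2.33-fold lower (14.3 and 46.6, adjusted p = 0.00176), whereas a second Amelx probe set had a log2 difference of 1.19 and was not called. Each bound sets the dim arrays at the higher of the presence level and their own signal. The Smoc2 call was lost without RSG replicates 1 or 2 or DMSO replicates 2 or 3 (0.0557 to 0.0973) and the Csn1s2b call without DMSO replicate 2 (0.0606). With all signals floored at the presence level neither was called (adjusted p = 0.738 for Smoc2 and 0.713 for Csn1s2b).

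Some lists held no call in limma, which is near the share over all probe sets (0.544% higher and 0.172% lower) for lists of their size. At an unadjusted p under 0.05 in limma, 3.64% of all probe sets were higher and 3.33% lower. The lists without a call were the inflammatory and acute phase list (59 probe sets, 1 higher and 1 lower at that unadjusted p), fibroblast and matrix genes (64, 0 and 1), TGF-beta, BMP and Wnt signaling (76, 4 and 9), antioxidant enzymes (55, 2 and 0) and the cell cycle (58, 1 and 1). The 9 falls of TGF-beta, BMP and Wnt signaling were a larger share than that over all probe sets, and the median log2 difference of that list was -0.11. Pdgfrb, a fibroblast marker, had a log2 difference of -0.29 (SE 0.24). In the ER and amino acid stress list Herpud1 was the single call of 54.

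**Figure D3:**
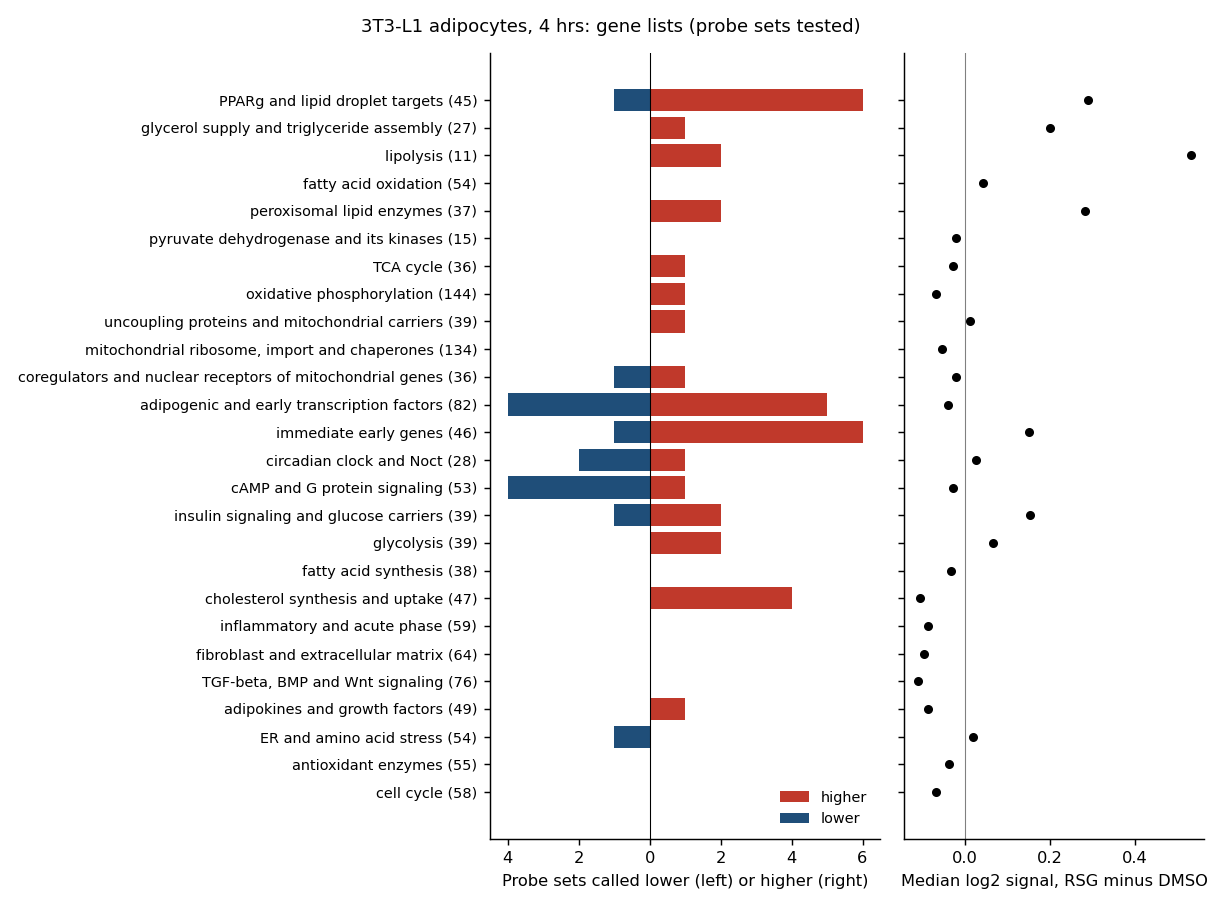
Left, the number of probe sets of each of 26 gene lists called higher (red, to the right) or lower (blue, to the left) with RSG at 4 hrs, with the number tested in parentheses. Right, the median log2 difference, RSG minus DMSO, of the same list. The PPARγ and lipid droplet list and the immediate early list each hold 6 rises and 1 fall, the lipolysis median of 0.53 is the highest, and 9 lists hold no call. The lists were chosen with earlier results of these data known, so the counts are no test of them.

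Most of the 4 hr calls were first made at this time and were made again later. A first call does not date the onset of an effect. At 2 hrs, 94 of the 98 rises and 29 of the 31 falls had the same direction, called or not. Their median log2 differences at 2 hrs were 0.53 and -0.48. Of the 98 rises 17 had been called at 1 or 2 hrs and 81 were first called at 4 hrs, and of the 31 falls 8 and 23, where 0.0388% and 0.0277% of all probe sets were called higher and lower at 1 hr and 0.111% and 0.061% at 2 hrs. At 7 hrs 75 of the rises and 20 of the falls were called again, which is 76.5% and 64.5% of the 4 hr calls and 34.1% and 13.5% of the 7 hr calls, and 61 and 12 were called at 7, 24 and 48 hrs alike. Over all probe sets, 1.22% were higher and 0.821% lower at 7 hrs. After 24 hrs these shares were 4.79% higher with 6.97% lower, and after 48 hrs 6.2% higher with 8.09% lower. The arrays of each time were separate cultures with their own controls, so none of these comparisons shares an array, and the 2 hr DMSO group had 2 arrays. From 4 to 48 hrs the log2 differences of Pck1, Pfkfb3 and Noct stayed within 1.96 to 2.38, 2.28 to 2.49 and 1.70 to 1.88. The Hmgcs1 difference went from 0.05 at 1 hr and 0.65 at 2 hrs to 1.26 at 4 hrs and 1.70 at 24 hrs. Pparg was 0.20 below its control on the log2 scale at 1 hr, and lower by 1.38 at 4 hrs and 0.83 at 48 hrs.

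Of the rises 14 were called at no other time, among them Chst1, Glipr2, Slc5a6, Casp8, Mcam and Klf9, and of the falls 4, among them Jund. Such a call at 1 time does not show that the effect differed from that at other times. The difference between the effects at 4 and 2 hrs passed the threshold for no probe set in limma (550 at an unadjusted p under 0.05, lowest adjusted p 0.278), nor did that between 4 and 7 hrs (574, lowest 0.296). Against 1 hr, a contrast added after the data had been seen, there was none either (866, lowest 0.0843 for Armcx4, whose effect was larger by 1.34). Against 24 hrs, also added later, 309 probe sets differed (1.71% of those tested), 138 with the higher value at 4 hrs and 171 with the higher value at 24 hrs. Glipr2 was among the first, with a log2 difference of 1.34 at 4 hrs, -0.65 at 24 hrs and -1.28 at 48 hrs, and the effect differed by 1.99 (95% interval 1.17 to 2.81, adjusted p = 0.00553). Without RSG replicate 1 the number of such probe sets was 189 and without DMSO replicate 2 it was 201.

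Some mitochondrial genes were among those with the higher value at 24 hrs. Hadhb had 0.12 at 4 hrs and 1.65 at 24 hrs (difference -1.53, adjusted p = 1.52e-06), Hadha 0.27 and 1.36 (-1.10, adjusted p = 0.000580), Cycs 0.69 and 1.87 (-1.18, adjusted p = 0.00172) and Ppargc1a, a coactivator of such genes, -0.41 and 1.16 (-1.57, adjusted p = 0.0172). Others that the study discusses did not pass, with differences of -0.60 for Cs, -0.44 for Crat, -0.998 for Cidea, -0.12 for Ucp3, 0.39 for Acadsb, 0.58 for Acsl5 and 1.70 for Slc25a24. Pdk4 was high early and late and not between: its log2 difference went from 1.3 at 1 hr through 0.87 at 2 hrs to 0.14 at 4 hrs, and then to 0.53 at 7 hrs and 1.83 at 24 hrs. The 24 hr effect was larger than the 4 hr effect by 1.69 (adjusted p = 0.000528), whereas the 1 hr effect exceeded it by 1.16, with an adjusted p of 0.153 that missed the threshold. The mean DMSO signal of Pdk4 was 120 at 1 hr and 114 at 4 hrs, and its mean RSG signal was 294 and 127.

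**Figure D4:**
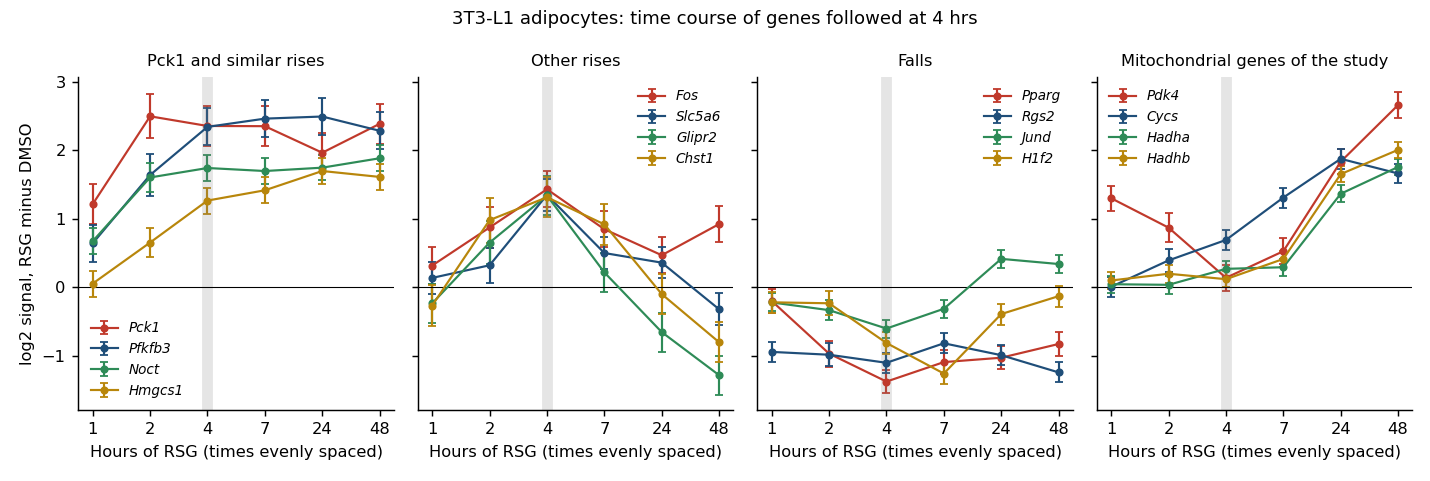
Log2 difference, RSG minus DMSO, of 16 genes in 3T3-L1 adipocytes against hours of treatment, drawn evenly spaced, with the 4 hr point shaded. Points are fitted differences and bars their SE. Pck1, Pfkfb3 and Noct are high from 2 hrs on, Glipr2 and Chst1 peak at 4 hrs and are below 0 at 24 and 48 hrs, Pparg is lowest at 4 hrs, and Pdk4 is at 0.14 at 4 hrs between higher values.

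C3H/10T1/2 adipocytes received the same dose for the same time, after differentiation in 10000 nM RSG where 3T3-L1 cells had 100 nM. Of the 98 rises 36 were also called there at 4 hrs and of the 31 falls 6, which is 36.7% and 19.4% of the calls in 3T3-L1 and 41.9% and 16.2% of those in C3H/10T1/2 adipocytes, where 0.533% and 0.229% of probe sets were called. The direction was the same for 92 of the 98, and for 29 of the 30 falls tested there. No probe set passed the threshold for a difference between the lines in limma (623 at an unadjusted p under 0.05, lowest adjusted p 0.287). Pck1 rose in both, by 2.35 and 2.61 on the log2 scale, as did Noct (1.74 and 1.63), Pim3 (1.24 and 1.16) and Ppargc1b (0.90 and 1.71).

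Some genes were far apart without passing that test. The Pparg value was -1.38 in 3T3-L1 adipocytes against -0.39 in the other line, a difference of -0.98 (95% interval -1.40 to -0.56, adjusted p = 0.287). Hmgcs1 had 1.26 and 0.24, a difference of 1.02 (interval 0.51 to 1.53, adjusted p = 0.353). Fos had 1.43 and -0.04, Slc5a6 1.35 and 0.16, and Glipr2 1.34 and -0.01, with adjusted p for the difference of 0.570, 0.914 and 0.768. Pdk4 was higher with RSG in C3H/10T1/2 adipocytes (1.2) and not in 3T3-L1 (0.14), with an adjusted p for the difference of 0.287. The lines were differentiated by these different protocols, so line and protocol cannot be told apart.

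**Figure D5:**
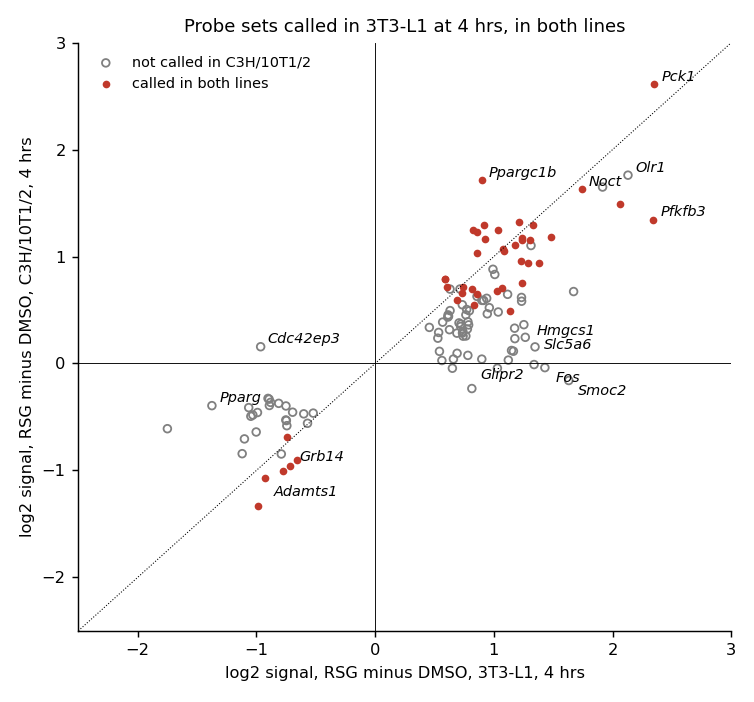
Log2 difference, RSG minus DMSO, at 4 hrs in 3T3-L1 (horizontal) and C3H/10T1/2 adipocytes (vertical) for the 128 probe sets called in 3T3-L1 and tested in both lines. Filled red points are the 42 called in both lines, open points were not called in C3H/10T1/2 adipocytes, and the dotted line marks equal differences. Pck1 and Ppargc1b lie above that line, and Fos, Glipr2 and Smoc2 lie close to 0 on the vertical axis.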

How the data were processed

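RNA was hybridised to Affymetrix mouse 430A arrays, and the authors computed probe set signals with MAS 5.0, with a trimmed mean of 149.99 on the 4 hr arrays. The deposited values are linear intensities (signals). After 64 control probe sets were left out, 22626 remained (20380 of 1 gene, 691 of several, 1555 unnamed). Signals of 0 (132 in all, 10 on the 4 hr arrays) were set to 0.1, and log2 was taken. The 18028 probe sets with a group mean of at least 19.9, the presence level of the methods, were tested in limma 3.58.1 (R 4.3.3) with lmFit and eBayes with an intensity trend, on all 35 3T3-L1 arrays with 1 mean per cell group, in place of the separate analysis of variance of the methods, which was run as an alternative. Differences between times or lines were contrasts of that fit or of a joint fit of 71 arrays (18274 probe sets). Benjamini-Hochberg adjustment covered all probe sets, and a call is an adjusted p under 0.05. Summaries and figures used Python 3.11.15. The scripts were tested on simulated data. The number of arrays limits the precision. Intervals and p-values of limma rest on the spread between replicate arrays, pooled over all groups of a fit and adjusted by the intensity trend, and not on the 4 hr arrays alone.

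Named genes were the 15 largest rises and 12 largest falls without overlap, and in each list up to 3 rises and 2 falls of greatest size. Added to these were genes the study discusses. Up to 5 genes each way were to be named from the contrasts against 2 hrs, 7 hrs and the other line, but none passed there. The contrasts against 1 and 24 hrs, added later, were not used for naming. Of the called probe sets of a gene, that with the highest mean signal was named, so that a probe set of higher signal that was not called could be passed over. Genes the study discusses were named by their probe set of highest mean signal, called or not. Up to 3 genes each way below the presence level in 1 group were given as bounds. Members, gene lists and tests were chosen with earlier results of these data known. The alternatives were no intensity trend, a floor at the presence level, other filters, the 6 arrays alone, quantile normalization, a replicate block, the analysis of variance on the 6 arrays with and without adjustment, and each 4 hr array left out. Ucp2 and Cfd were not analysed here.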

Additional observations from a re-analysis of the deposited data

Results flagged for a closer look

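For 10 named genes the effect of RSG at 4 hrs differed from that at 24 hrs in a test of the difference itself in limma, a contrast chosen after the data had been seen, in which 309 of 18028 probe sets (1.71%) passed. These genes had been named for other reasons and are not the leading genes of that contrast. Its smallest adjusted p in limma was that of Acaa1b (2.60e-10), which was not among them. The effect was larger at 4 hrs for Glipr2, by 1.99 on the log2 scale (adjusted p = 0.00553). For the mitochondrial genes the 4 hr effect minus the 24 hr effect was -1.53 for Hadhb (adjusted p = 1.52e-06), -1.10 for Hadha (0.000580), -1.18 for Cycs (0.00172) and -0.70 for a second Idh3a probe set that was not called at 4 hrs (0.0289). It was -1.69 for Pdk4 (adjusted p = 0.000528), -1.57 for Ppargc1a (0.0172) and -1.02 for Jund (0.00263). It was -3.26 for Csn1s2b (adjusted p = 0.00377) and -2.02 for Amelx (0.0114), both below the presence level on all RSG arrays at 4 hrs, so that the sizes of these differences are not well measured. Groups of 3 arrays were not tested for single outlying arrays.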

How the results depend on the processing

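The 48 called genes named by rule kept their direction in all 768 recomputed values, with 596 past the threshold and 172 not. With signals floored at the presence level the calls of Smoc2, Csn1s2b and Id4 were lost. Of the 98 rises and 31 falls, 97 and 30 were also called after quantile normalization. With the 6 arrays alone the counts were 46 and 11. The analysis of variance on these 6 arrays gave 526 and 496 unadjusted at 1.2-fold, and 0 and 0 after adjustment. Leaving out 1 array gave 58 to 88 rises and 16 to 27 falls (58 rises without RSG replicate 1, and 59 rises and 16 falls without DMSO replicate 2). With the replicate number as a block 154 rose and 66 fell, including all 98 and 31, and in the 6 arrays alone the block gave 65 and 17. No named call was lost with the block, and a second Idh3a probe set went from an adjusted p of 0.0867 to 0.0463. Deviations of same-numbered arrays correlated over 0.1 in 16 of 17 pairs (0.03 to 0.348), which leans toward pairing, but the criterion was every pair, 1 of the 4 hr pairs was at 0.03, and the labels do not say that a number marks a shared batch, so the block is given as an alternative. All 3 RSG arrays at 4 hrs correlated best with their own number, a hint from the data and not the design.

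For differences between effects, 4 against 2 hrs gave 0, and 0 to 1 with 1 array left out (1 without DMSO replicate 3). 3T3-L1 against C3H/10T1/2 adipocytes gave 0, but 2 with the floor, 2 after quantile normalization and 3 with the block. 4 against 1 hr gave 0, but 3 after quantile normalization, 14 with the block and 0 to 2 with 1 array left out (2 without DMSO replicate 1). 4 against 24 hrs gave 309, but 604 with the block and 189 to 236 with 1 array left out (189 without RSG replicate 1, 201 without DMSO replicate 2). The cause of these shifts was not tested, beyond there being fewer arrays where arrays were left out. Signals near the presence level limit what could be called.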
